A study of Mus musculus with 6 samples.

Results

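Collagens are the triple-helical proteins of the extracellular matrix, and their genes were compared here between horizontal basal cells of control mice and of mice with TNF-driven inflammation. Members were all rows of the deposited expression table with a symbol of the form Col, a number, a and a number, apart from Col17a1, a transmembrane hemidesmosome collagen of basal keratinocytes. The rule gave 45 of 44519 rows, which carried 43 symbols because Col9a1 and Col8a2 each had a second row. None was merged with another gene. The 6 genes of collagens I, III and V formed the fibrillar set, the 8 genes of collagens IV, VII and XVIII the basement membrane set, and the other 31 rows were taken by structural class.

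Horizontal basal cells are the reserve stem cells of the olfactory epithelium, which lie flat on its basement membrane. GFP-positive cells were sorted from the olfactory neuroepithelium, and bulk RNA sequencing of 6 libraries measured their mRNA. The control group held libraries control 1, control 2 and control 4, named by replicate number, from mice with the Krt17-EGFP reporter alone and labelled as given no doxycycline. The TNF group held TNF 1, TNF 3 and TNF 4, from mice with Krt17-EGFP, Cyp2g1-rtTA and TRE-TNF and 6 weeks of doxycycline. In that pair of transgenes the Cyp2g1 promoter, which is active in sustentacular cells, drives the doxycycline-dependent activator that switches on TNF, so TNF is made by neighbours of the sorted cells. Krt17-EGFP is carried by both groups. Transgenes and doxycycline differed together between the groups and cannot be told apart. The sources do not give animal age or whether a library came from 1 animal or a pool, and a p-value here reflects only how these libraries vary.

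Fibrillar collagens assemble into the banded fibrils of connective tissue, and fibroblasts are their main source. Collagen IV forms the sheet-like network of basement membranes, collagen VII anchors epithelial basement membranes to the stroma below, and collagen XVIII, the precursor of endostatin, is a proteoglycan of vascular and epithelial basement membranes. Epithelial cells and the vessels and glia beneath them all contribute collagen IV.

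Expression was given in FPKM, fragments scaled by gene length and by library total, so levels can be compared between genes. Depth is unknown, and by the spacing of low values 1 fragment was worth 0.874 to 1.08 times as much FPKM as in control 1. FPKM summed to between 688190 and 838417 per library. The 12 horizontal basal cell markers were 11 rows, since Krt14 and Krt17 share 1, and all were above 0 in every library. Summed over the 11 rows, they were at 841 to 3511 FPKM in control and 5936 to 8316 FPKM in TNF libraries, and 5 rose and 0 fell. Of markers of other epithelial and immune cells, 0 rose and 11 of 11 fell for neurons, 0 rose and 4 of 9 fell for sustentacular and gland cells, and 1 rose and 5 of 9 fell for macrophages. Neuron markers summed to 4220, 3695 and 7536 FPKM in control 1, control 2 and control 4. In TNF 1, TNF 3 and TNF 4 they summed to 959, 44.7 and 37.6 FPKM. In the same order, sustentacular and gland markers summed to 9979, 10880 and 5109 FPKM and to 13723, 5194 and 5170 FPKM. Macrophage markers summed to 355, 396 and 1545.5 FPKM and to 1624, 822 and 798 FPKM. Of all rows tested, 10.9% rose and 27.2% fell. Libraries stood apart within both groups. Correlations of log2(FPKM + 1) across genes were 0.983 for the pair TNF 3 with TNF 4 and 0.972 for control 1 with control 2. Within the same groups they were 0.922 to 0.931 for control 4 and 0.909 to 0.912 for TNF 1. TNF 1 is therefore given apart for the collagens.

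As a family the collagens did not move in 1 direction. With a filter of at least 1 FPKM in at least 3 libraries, 26 of the 45 rows were tested, of which 5 rose and 2 fell, at an adjusted p below 0.05 (limma, n = 3 per group). Of all features, 38.0% of 15037 rows were called, 10.9% upward and 27.2% downward. The median log2 change over the 26 rows was 0.49 against −0.22 over all tested rows, and fold changes on this log2(FPKM + 1) scale understate the change of low genes. In bulk samples, fewer cells of a type and less RNA per cell cannot be told apart. Without TNF 1 the counts were 14 higher and 3 lower, where 14.7% and 32.9% of all rows were called. Without control 4, 1 collagen row was higher and 2 were lower, where 9.35% and 24.2% of all rows were called. Leaving out both gave 14 higher and 4 lower, where 18.9% and 39.7% of all rows were called. The higher count was 2 without control 1 (7.02% of all rows), 1 without control 2 (9.73%), 2 without TNF 3 (6.24%) and 1 without TNF 4 (6.76%). When libraries were instead scaled to their horizontal basal cell markers, which moved the median of all rows to −1.52, 1 collagen row was higher and 4 were lower, where 1.54% and 63.4% of all rows were called. Of the 11 marker rows behind this scaling, 5 were themselves called higher in TNF libraries. Whether they rose within cells or through more of these cells was not tested, so the scaling is not a measure of cell content alone.

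**Figure D1:**
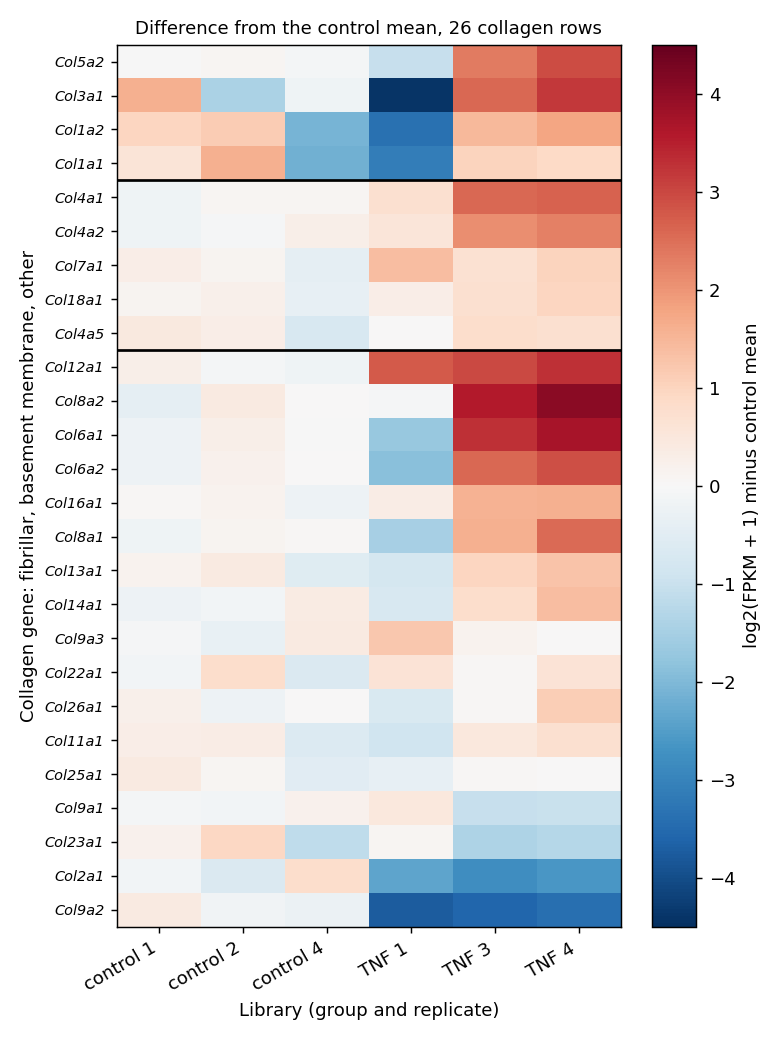
Log2(FPKM + 1) minus the control mean (colour scale) for the 26 tested collagen rows in each of the 6 libraries, with fibrillar genes above the first black line, basement membrane genes between the lines and other genes below, as deposited and without rescaling. Col12a1 is 2.76 to 3.29 above the control mean in all 3 TNF libraries, while Col3a1 is at −4.40 in TNF 1 and at 2.60 and 3.20 in TNF 3 and TNF 4.

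The basement membrane set held 3 of the 5 increases. Col4a1, which encodes the alpha 1 chain of collagen IV, was at 8.02, 9.98 and 9.76 FPKM in control 1, control 2 and control 4, and at 15.8, 60.2 and 63.7 FPKM in TNF 1, TNF 3 and TNF 4. All 3 TNF libraries lay above all controls, with TNF 1 far nearer to the controls than the other TNF libraries were. The log2 change was 1.99 ± 0.51 (SE, adjusted p = 0.0226). Col4a2, the partner chain that joins 2 alpha 1 chains in the common collagen IV trimer, was at 4.65, 5.22 and 6.80 FPKM in controls and at 8.38, 26.8 and 30.7 FPKM in TNF 1, TNF 3 and TNF 4. It showed the same order of libraries between groups, with a log2 change of 1.64 ± 0.47 (adjusted p = 0.0329). Each of the 5 omissions of a single library other than TNF 1 ended both calls (adjusted p from 0.0565 to 0.110). Without TNF 1 the changes were 2.62 (adjusted p = 0.000352) for Col4a1 and 2.19 (adjusted p = 0.00109) for Col4a2. With scaling to the horizontal basal cell markers the values were 0.60 (adjusted p = 0.412) and 0.30 (adjusted p = 0.685). Col4a2 also missed the threshold when replicate number was fitted as a block (adjusted p = 0.112) and without the filter (adjusted p = 0.0614).

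Col4a1 (chromosome 8, 11198423 to 11312826, minus strand) and Col4a2 (11312805 to 11449287, plus strand, GENCODE M21, GRCm38) are transcribed away from each other from starts 21 bp apart. Their windows of 250 bases before to 50 bases after the start are shown because these genes share a start region and rose together. Both are from RefSeq (GRCm38.p6) and run 5′ to 3′ on each gene's own strand, at chr8:11312777-11313076 for Col4a1 and chr8:11312555-11312854 for Col4a2. Capitals mark the 78 bases, 11312777 to 11312854, that lie in both windows and read as reverse complements.
Col4a1: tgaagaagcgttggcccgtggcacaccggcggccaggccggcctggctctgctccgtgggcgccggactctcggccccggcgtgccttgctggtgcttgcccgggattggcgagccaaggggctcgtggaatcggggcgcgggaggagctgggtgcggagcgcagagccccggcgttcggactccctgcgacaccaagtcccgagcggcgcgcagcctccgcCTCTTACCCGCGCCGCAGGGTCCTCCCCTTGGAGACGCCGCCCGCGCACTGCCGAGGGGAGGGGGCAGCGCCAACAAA
Col4a2: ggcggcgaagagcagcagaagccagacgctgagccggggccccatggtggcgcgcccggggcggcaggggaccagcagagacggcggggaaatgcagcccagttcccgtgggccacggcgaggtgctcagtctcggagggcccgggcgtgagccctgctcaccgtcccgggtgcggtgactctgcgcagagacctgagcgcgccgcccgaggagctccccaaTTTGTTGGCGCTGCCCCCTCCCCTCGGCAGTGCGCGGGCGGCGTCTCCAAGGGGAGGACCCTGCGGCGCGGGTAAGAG
The first exons of these genes overlap at the starts, so without strand information fragments there could count for either gene, since the sources do not say how strand was handled.

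The other chains of collagen IV were low. Col4a5 was at 3.06, 2.71 and 0.828 FPKM in controls and at 2.08, 4.23 and 3.95 FPKM in TNF 1, TNF 3 and TNF 4, groups that overlapped through TNF 1 (log2 change 0.51 ± 0.38, adjusted p = 0.327). Col4a3, Col4a4 and Col4a6, chains of specialised basement membranes such as those of the kidney and lens, stayed below 0.5 FPKM in every library and were not tested. Both remaining collagen IV pairs are also head to head. The starts of Col4a3 and Col4a4 lie 72 bp apart and those of Col4a5 and Col4a6 lie 1309 bp apart.

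Col7a1 (chromosome 9, 108953586 to 108984875 in mm10, as for the deposited positions given from here on), which encodes the anchoring fibril collagen made by basal epithelial cells, was the basement membrane gene with its highest value in TNF 1. It was at 8.09, 7.13 and 4.65 FPKM in controls and at 18.4, 11.0 and 14.0 FPKM in TNF 1, TNF 3 and TNF 4, so the groups did not overlap and TNF 1 was the highest library. The log2 change was 1.02 ± 0.28 (adjusted p = 0.0271) and −0.30 (adjusted p = 0.597) with scaling to the horizontal basal cell markers. The call ended without control 2 (adjusted p = 0.0572), control 4 (adjusted p = 0.0604) or TNF 4 (adjusted p = 0.0797), and when replicate number was fitted as a block (adjusted p = 0.124). Its exons overlap the microRNA gene Mir711. Col18a1 was at 11.7, 12.6 and 8.0 FPKM in controls and at 13.4, 18.2 and 21.8 FPKM in TNF 1, TNF 3 and TNF 4. Its TNF libraries lay above its controls without a call (0.67 ± 0.26, adjusted p = 0.0811), and it passed without TNF 1 (0.85, adjusted p = 0.0308). Its value also passed with median-of-ratios scaling (0.89, adjusted p = 0.039) and quantile normalization (0.89, adjusted p = 0.037) and was −0.69 (adjusted p = 0.239) with scaling to the horizontal basal cell markers.

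Over the set, 3 of 5 tested genes rose and 0 fell, where 10.9% and 27.2% of all rows did. The median was 1.02 as deposited and −0.30 with scaling to the horizontal basal cell markers. Groups did not overlap, with TNF above, for 4 of the 5 genes, where 16.8% of all rows showed this. The set median relative to the control mean was 0.53 in TNF 1, 0.79 in TNF 3 and 1.01 in TNF 4, against −0.36 to 0.13 in controls.

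**Figure D2:**
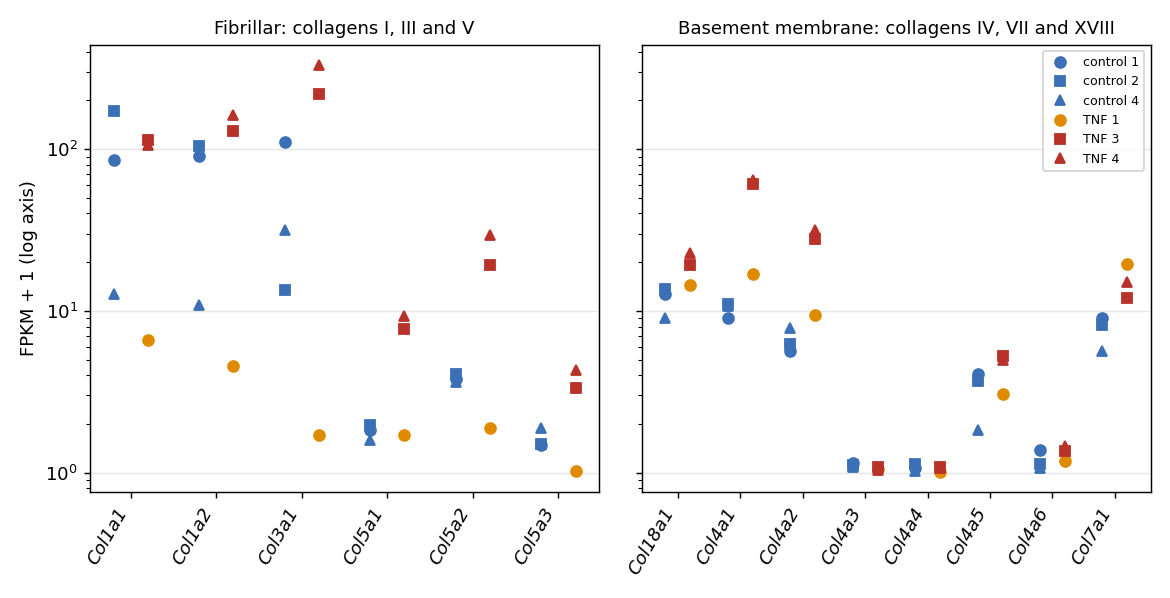
FPKM + 1 on a log axis for the 6 fibrillar genes (left) and the 8 basement membrane genes (right) in each library, with control libraries in blue, TNF 1 in orange and TNF 3 and TNF 4 in red. For Col1a2 TNF 1 is the lowest library, at 3.57 FPKM, and for Col7a1 it is the highest, at 18.4 FPKM.

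None of the fibrillar genes passed the test with all 6 libraries. Col1a1 (chromosome 11, 94936224 to 94953042), the alpha 1 chain of collagen I, was at 84.6, 171 and 11.7 FPKM in control 1, control 2 and control 4 and at 5.62, 113 and 105 FPKM in TNF 1, TNF 3 and TNF 4. Control 4 and TNF 1 were the low libraries, and the groups overlapped (log2 change −0.41 ± 1.36, adjusted p = 0.839). Col1a2 (chromosome 6, 4504814 to 4541543), the other chain of the collagen I trimer, was at 90.1, 104 and 9.95 FPKM in controls and at 3.57, 129 and 161 FPKM in TNF 1, TNF 3 and TNF 4. It had the same low libraries (−0.04 ± 1.53, adjusted p = 0.987), and its sign turned with median-of-ratios (0.18), upper quartile (0.10) and quantile (0.22) scaling. With control 4 and TNF 1 both left out, Col1a2 passed as higher (0.57, adjusted p = 0.0242), where 18.9% of all rows did.

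Col3a1, whose product lines reticular fibres, had the highest single value of any collagen. It was at 109, 12.5 and 30.7 FPKM in controls and at 0.707, 218 and 330.1 FPKM in TNF 1, TNF 3 and TNF 4. Here control 2, not control 4, was the low control. The log2 change was 0.46 ± 2.01 (adjusted p = 0.877), and it was 2.90 (adjusted p = 0.0338) without TNF 1 and −1.31 with the replicate number as a block. Exons of Col3a1 overlap Gm47302, so the value is uncertain. Col5a2, a chain of the collagen V that nucleates collagen I fibrils, was nearly constant in controls, at 2.79, 3.07 and 2.64 FPKM. It was at 0.880 FPKM in TNF 1, below all controls, and at 18.3 and 28.4 FPKM in TNF 3 and TNF 4, above all controls (1.42 ± 0.97, adjusted p = 0.293, and 2.64 with adjusted p = 0.000952 without TNF 1). Col5a1 and Col5a3 did not pass the filter. Col5a1 was at 0.591 to 0.978 FPKM in controls and at 0.704, 6.77 and 8.34 FPKM in TNF 1, TNF 3 and TNF 4, and Col5a3 was at 0.493 to 0.890 FPKM in controls and at 0.0174, 2.35 and 3.32 FPKM.

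Over the set 0 of 4 tested genes rose or fell (limma, 0 at an unadjusted p below 0.05), where 38.0% of all rows were called. The median log2 change was 0.21. That median became −1.09 with scaling to the horizontal basal cell markers, and 2.13 without TNF 1. The set median relative to the control mean was −3.24 in TNF 1 and 1.90 and 2.36 in TNF 3 and TNF 4, while it ran from −1.15 in control 4 to 0.77 in control 1. Whether the response of the fibrillar set differed from that of the basement membrane set was not tested.

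The 2 sets made up different shares of the collagen signal from library to library. Fibrillar genes summed to 288, 292 and 56.5 FPKM in control 1, control 2 and control 4 and to 11.5, 488 and 636 FPKM in TNF 1, TNF 3 and TNF 4. They were 69.3%, 66.9% and 35.8% of all collagen FPKM in the controls and 8.19%, 62.5% and 63.8% in the TNF libraries. Basement membrane genes summed to 36.1, 38.0 and 30.2 FPKM in controls and to 58.4, 121 and 135 FPKM in TNF 1, TNF 3 and TNF 4, so every TNF library lay above every control. Their share was 41.6% in TNF 1 and 8.70% to 19.2% in the other 5 libraries.

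Markers of stromal cells moved in part with the fibrillar genes between TNF libraries. TNF 1 was below and TNF 3 and TNF 4 were above all controls for 3 of 7 tested fibroblast markers and 8 of 9 tested endothelial markers. Of all tested rows 3.37% had that pattern, which was chosen after the values were seen. Of 12 fibroblast markers, a list without collagens, the summed level was 249 to 398 FPKM in controls and 262, 944 and 1338 FPKM in TNF 1, TNF 3 and TNF 4, and 3 markers were at 0 in TNF 1, 2 in control 1 and 0 in the other libraries. Of 7 tested, 3 rose and 1 fell, where 10.9% and 27.2% of all rows did. Without TNF 1 these counts were 6 and 1, where 14.7% and 32.9% of all rows were called. The marker that fell was Pi16, at 1.07 to 2.32 FPKM in controls and 0.112 to 0.175 FPKM in TNF libraries. Pi16 passed the filter only through the controls. Fbln1 was above the controls in all 3 TNF libraries, at 31.8, 36.6 and 42.3 FPKM in TNF 1, TNF 3 and TNF 4. Dcn, the fibroblast proteoglycan decorin, was at 215, 140.4 and 77.2 FPKM in controls and at 30.7, 512 and 791 FPKM in TNF 1, TNF 3 and TNF 4 (0.81 ± 1.18, adjusted p = 0.625). Gsn, the actin-severing protein gelsolin, was at 143 to 152 FPKM in controls and 196 to 296 FPKM in TNF libraries and rose by 0.72 ± 0.19 (adjusted p = 0.0264), a call that ended with each single omission except that of TNF 1 and turned to −0.74 with scaling to the horizontal basal cell markers. Of 12 endothelial markers the sum was 66.8 to 123 FPKM in controls and 4.43, 209 and 299 FPKM in TNF 1, TNF 3 and TNF 4, with 1 marker at 0 in TNF 1, none at 0 elsewhere, and 0 of 9 tested passing (limma, 0 at an unadjusted p below 0.05, with a median log2 change of 0.42). Without TNF 1, 8 of the 9 passed as higher, where 14.7% of all rows did. Plvap, of fenestrated vessels, was at 28.9 to 71.4 FPKM in controls and at 0.310, 96.4 and 123 FPKM in TNF 1, TNF 3 and TNF 4. The row of Egfl7, merged with Fam69b and Gm20532, was at 11.7 to 19.4 FPKM in controls. It was at 2.27, 27.9 and 43.8 FPKM in TNF 1, TNF 3 and TNF 4, and these values cannot be credited to Egfl7 alone. The part of these cells in the collagen values was not tested.

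Pericyte markers did not move as 1 list. The sum of 10 pericyte and smooth muscle markers was 331 to 402 FPKM in controls and 1405, 1530.0 and 1564 FPKM in TNF 1, TNF 3 and TNF 4, none at 0. Of 7 tested, 5 rose without TNF 1 (14.7% of all rows) and 1 with all libraries (10.9%). That gene was Rgs5, which held most of the sum (226 to 350 FPKM in controls and 1276 to 1395 FPKM in TNF libraries, with 0.70 and adjusted p = 0.213 under scaling to the horizontal basal cell markers), while the smooth muscle actin gene Acta2 was at 26.4 to 73.0 FPKM in controls and at 5.46, 114 and 183 FPKM in TNF 1, TNF 3 and TNF 4. Of 10 ensheathing and Schwann glia markers 2 of 10 tested rose and 0 fell, where 10.9% and 27.2% of all rows did, and 1 was at 0, in TNF 1. Their sum ran from 27.1 FPKM in control 4 to 319 FPKM in control 1 and was 18.4 to 47.2 FPKM in the TNF group. Fabp7 was at 229, 87.6 and 10.4 FPKM in controls and at 2.0, 7.91 and 9.56 FPKM in TNF libraries.

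**Figure D3:**
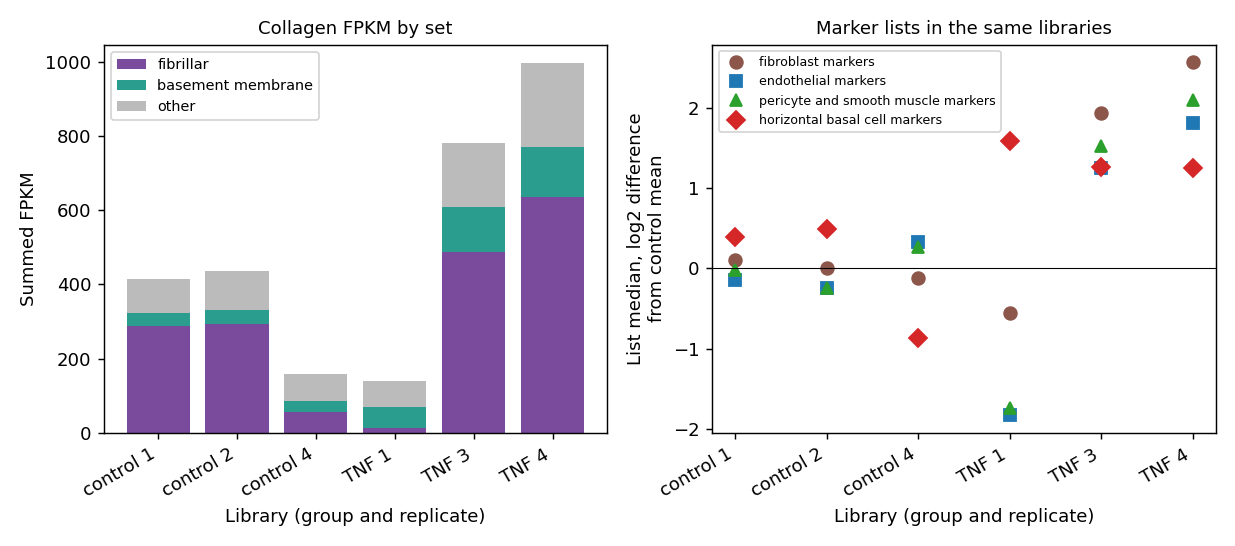
Left, summed FPKM of the fibrillar, basement membrane and other collagen genes as stacked bars for each library. Right, the median log2 difference from the control mean over the tested genes of 4 marker lists in the same libraries, in which the endothelial median is −1.83 in TNF 1 and 1.25 and 1.81 in TNF 3 and TNF 4, while the horizontal basal cell median is 1.25 to 1.59 in all 3 TNF libraries.

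Col12a1 (chromosome 9, 79598991 to 79718831) was the member whose rise did not depend on any single library. It encodes collagen XII, a fibril-associated collagen of stressed and healing tissue. It was at 1.17, 0.691 and 0.561 FPKM in control 1, control 2 and control 4, and at 11.2, 12.9 and 16.5 FPKM in TNF 1, TNF 3 and TNF 4. Each TNF library was well above every control, with TNF 1 the lowest of the 3. Of the controls only control 1 reached 1 FPKM, so this row passed the filter through the TNF group. The log2 change was 3.0 ± 0.24 (adjusted p = 0.000447), and over the alternatives it lay between 1.97 and 3.94, with adjusted p from 0.000425 to 0.00574.

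Col16a1, another fibril-associated collagen, rose less. It was at 9.09, 9.82 and 7.36 FPKM in controls and at 11.2, 28.0 and 28.7 FPKM in TNF 1, TNF 3 and TNF 4, so TNF 1 lay just above the controls (1.17 ± 0.37, adjusted p = 0.0456). It was −0.18 (adjusted p = 0.778) with scaling to the horizontal basal cell markers. The call ended with each single omission other than that of TNF 1 (adjusted p from 0.0850 to 0.148), without the filter (adjusted p = 0.0768) and when replicate number was fitted as a block (adjusted p = 0.227). Col14a1, which like collagen XII binds fibril surfaces, was at 0.535 to 1.33 FPKM in controls and at 0.0900, 2.13 and 3.69 FPKM in TNF 1, TNF 3 and TNF 4, and did not pass (0.48 ± 0.53, adjusted p = 0.509). It passed without TNF 1, at 1.09 (adjusted p = 0.0253), and was −0.29 with scaling to the horizontal basal cell markers.

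The 2 decreases were in cartilage collagens. Col9a2 (chromosome 4, 121039385 to 121055322), a chain of the collagen IX that coats collagen II fibrils, was at 23.6, 15.8 and 14.6 FPKM in controls and at 0.393, 0.567 and 0.769 FPKM in TNF 1, TNF 3 and TNF 4. All TNF libraries were below 1 FPKM, so this row passed the filter only through the controls. The log2 change was −3.57 ± 0.25 (adjusted p = 0.000397), with values from −4.75 to −3.11 and adjusted p from 8.19e-05 to 0.00392 over the alternatives. Col2a1 (chromosome 15, 97975602 to 98004695), the main fibrillar collagen of cartilage, was at 5.68, 3.61 and 11.6 FPKM in controls and at 0.403, 0.0625 and 0.186 FPKM in TNF 1, TNF 3 and TNF 4. All TNF libraries were again below all controls (−2.59 ± 0.38, adjusted p = 0.00250, with adjusted p from 0.00116 to 0.0141 over the alternatives). Col2a1 too passed the filter only through the controls. The filter thus took in both rows by the group in which they were high. TNF below without overlap was found for 2 of the 26 rows, where 36.2% of all rows showed it.

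The partner chains of collagen IX did not pass the test. Col9a3 was at 2.05, 1.52 and 3.20 FPKM in controls and at 6.36, 2.57 and 2.23 FPKM in TNF 1, TNF 3 and TNF 4 (0.46 ± 0.37, adjusted p = 0.368), and its exons overlap Tcfl5. Col9a1 was at 1.57, 1.46 and 2.1 FPKM in controls and at 2.78, 0.319 and 0.333 FPKM in TNF 1, TNF 3 and TNF 4 (−0.52 ± 0.42, adjusted p = 0.372), high in TNF 1 and low in the other TNF libraries. Without TNF 1 Col9a1 passed at −1.02 (adjusted p = 0.00725). A second Col9a1 row at the same locus was above 0 only in control 4, at 3.91 FPKM, and in TNF 1, at 4.91 FPKM, so the Col9a1 level is uncertain. Col11a1, which joins collagen II in cartilage fibrils, was at 0.505 to 1.90 FPKM in controls and at 0.262, 2.2 and 2.88 FPKM in TNF 1, TNF 3 and TNF 4 (0.10 ± 0.48, adjusted p = 0.885).

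The promoter window of Col9a2, the gene with the largest fall, is set beside that of Col7a1, whose call was upward. They are the RefSeq windows chr4:121039316-121039615 and chr9:108953336-108953635, both on the plus strand of GRCm38.p6, and capitals mark CCAAT or GGGCGG letters on either strand.
Col9a2: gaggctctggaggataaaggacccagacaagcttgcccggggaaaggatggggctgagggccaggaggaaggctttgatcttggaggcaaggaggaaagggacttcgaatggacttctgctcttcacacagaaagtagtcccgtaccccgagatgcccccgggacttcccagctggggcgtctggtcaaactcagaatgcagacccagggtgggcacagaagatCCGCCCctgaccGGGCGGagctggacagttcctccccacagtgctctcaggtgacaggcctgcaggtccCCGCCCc
Col7a1: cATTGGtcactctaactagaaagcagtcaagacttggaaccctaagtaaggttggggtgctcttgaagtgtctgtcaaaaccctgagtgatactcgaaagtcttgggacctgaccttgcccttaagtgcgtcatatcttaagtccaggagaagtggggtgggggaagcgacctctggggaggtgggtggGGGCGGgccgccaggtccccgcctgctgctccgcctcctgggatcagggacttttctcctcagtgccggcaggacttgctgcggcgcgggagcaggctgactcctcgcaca
Of the 43 collagen symbols 34 matched the promoter table, with 37 windows. The GC box letters GGGCGG were in 23 of the 37 windows and in 35.7% of 32851 windows of the same length over the genome. The CCAAT letters were in 12 of 37 and in 37.4% of all windows, and the TATA box letters TATAAA in 4 and in 13.6%. The AP-1 letters TGANTCA were in 1 window, that of Col6a1, and in 7.81% of all windows, and the NF-kB motif was in 0 of 37 windows and in 1.63% of all. Matches were counted on both strands, and a match describes letters in these windows only.

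Markers of cartilage and bone were given beside these genes, since nasal turbinates are made of both. The 12 chondrocyte and osteoblast markers summed to 333, 315 and 55.2 FPKM in control 1, control 2 and control 4 and to 107, 122 and 96.9 FPKM in TNF 1, TNF 3 and TNF 4, with 2 to 3 of the 12 at 0 in each library. Of 6 tested, 0 rose and 2 fell, where 10.9% and 27.2% of all rows did. Without TNF 1, 1 rose and 3 fell, where 14.7% and 32.9% of all rows were called. Bglap, the osteoblast gene of osteocalcin, was at 207, 152 and 3.25 FPKM in control 1, control 2 and control 4 and at 6.95, 0.516 and 0.153 FPKM in TNF libraries, while Col2a1 was highest in control 4. Sox9, a cartilage factor that olfactory gland cells also use, was at 30.8 to 93.1 FPKM in controls. It was at 88.4, 109.7 and 85.1 FPKM in TNF 1, TNF 3 and TNF 4, most of the sum there. The 2 markers that fell were Ibsp (adjusted p = 0.0291) and Alpl (adjusted p = 0.0238). Ibsp passed the filter only through the controls. The chondrocyte markers Acan, Matn1, Matn3 and Hapln1 were at most 0.43 FPKM in any library and were not tested. Cnmd was at most 3.49 FPKM in controls and lower in all TNF libraries, without a call (−1.02, adjusted p = 0.0612). The part of these cells in the decreases was not tested.

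Filament-forming and network collagens of the stroma followed the fibrillar pattern. Col6a1, a chain of the beaded filaments of collagen VI, was at 2.46, 3.87 and 3.06 FPKM in controls and at 0.246, 38.9 and 52.7 FPKM in TNF 1, TNF 3 and TNF 4. TNF 1 lay below all controls and the other TNF libraries far above them, and the change did not pass (1.76 ± 1.36, adjusted p = 0.348). With TNF 1 left out it was 3.50 (adjusted p = 0.00044). Col6a2 was at 2.72 to 3.95 FPKM in controls and at 0.176, 24.8 and 31.1 FPKM in TNF 1, TNF 3 and TNF 4 (1.20 ± 1.21, adjusted p = 0.470, and 2.74 with adjusted p = 0.000647 without TNF 1). Col6a3, Col6a4, Col6a5 and Col6a6 did not pass the filter. Col6a3 was at most 0.247 FPKM in controls and at 0.0104, 3.09 and 3.76 FPKM in TNF 1, TNF 3 and TNF 4.

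Collagen VIII, a short-chain collagen of vessels and of the endothelium of the cornea, had 2 chains that differed in TNF 1. Col8a1 was at 2.22, 3.03 and 2.82 FPKM in controls and at 0.299, 10.03 and 20.3 FPKM in TNF 1, TNF 3 and TNF 4 (0.88 ± 0.96, adjusted p = 0.510). Col8a2 was at 0.498, 1.62 and 1.0 FPKM in controls and at 0.920, 22.6 and 32.3 FPKM in TNF 1, TNF 3 and TNF 4 (2.53 ± 1.03, adjusted p = 0.0977). In TNF 1 Col8a2 lay within the control range, whereas Col8a1 lay below it. Both passed without TNF 1, at 2.06 (adjusted p = 0.00458) and 3.82 (adjusted p = 0.000664). A second Col8a2 row was at 0 in 5 libraries and at 0.0409 FPKM in the other.

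Over all 26 tested rows, TNF 3 and TNF 4 were both above every control for 17, where 25.0% of all rows showed this. For 9 of these 17, TNF 1 was at the same time below every control, where 3.37% of all tested rows had that pattern. The 9 were Col1a2, Col3a1, Col5a2, Col6a1, Col6a2, Col8a1, Col11a1, Col13a1 and Col14a1, and none was in the basement membrane set. This pattern was chosen after the values were seen, and it rests on 1 library. Of the 8 members for which TNF 1 was above every control, 6 were above in all 3 TNF libraries: Col4a1, Col4a2, Col7a1, Col18a1, Col12a1 and Col16a1. That is 6 of 26 rows with TNF above without overlap, where 16.8% of all rows showed it.

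The transmembrane collagens carry short collagen domains on the cell surface. Col23a1 had the highest control mean outside both sets, at 29.7, 49.7 and 11.1 FPKM, against 27.2, 9.24 and 10.04 FPKM in TNF 1, TNF 3 and TNF 4 (−0.86 ± 0.61, adjusted p = 0.309). TNF 1 lay within the control range here and the other TNF libraries lay below it, an order opposite to that of the fibrillar genes. It passed with scaling to the horizontal basal cell markers (−2.22, adjusted p = 0.00419), a scaling under which 4 members and 63.4% of all rows were lower. It also passed without control 4 and TNF 1 together (−1.89, adjusted p = 0.0032), where 39.7% of all rows were lower. Col13a1, found at cell adhesions, was at 0.469 to 1.86 FPKM in controls and at 0.251, 3.23 and 4.33 FPKM in TNF 1, TNF 3 and TNF 4 (0.49 ± 0.57, adjusted p = 0.533). It too passed without TNF 1, at 1.13 (adjusted p = 0.035), and was −0.25 with scaling to the horizontal basal cell markers. Col25a1 was at 0.464 to 1.74 FPKM in controls and at 0.608, 1.13 and 1.10 FPKM in TNF 1, TNF 3 and TNF 4, with adjusted p = 0.799.

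**Figure D4:**
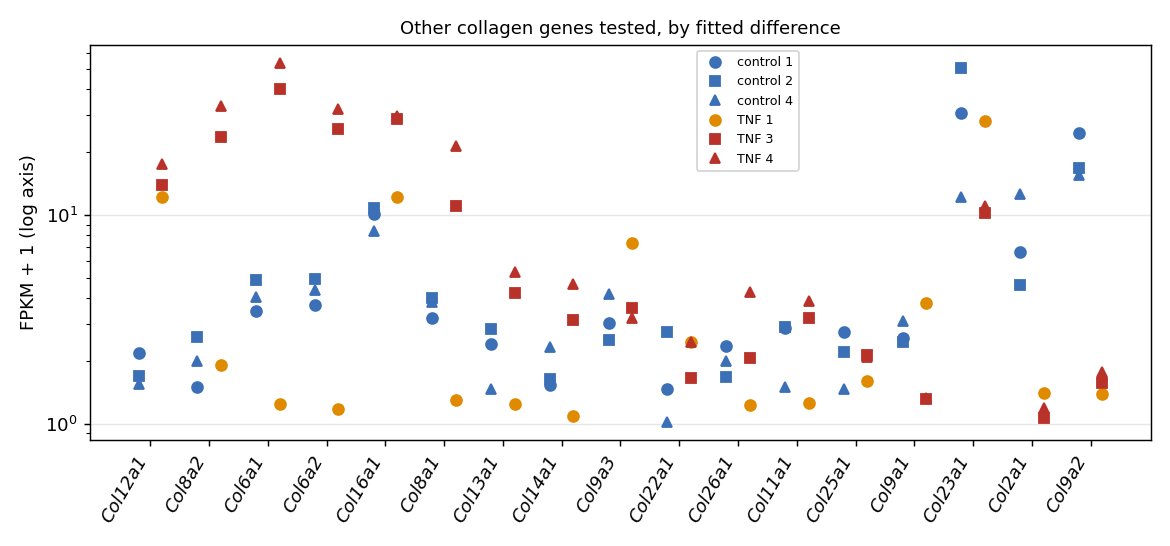
FPKM + 1 on a log axis for the 17 tested collagen genes outside the fibrillar and basement membrane sets, ordered by their fitted difference, with control libraries in blue, TNF 1 in orange and TNF 3 and TNF 4 in red. Col12a1 lies between 11.2 and 16.5 FPKM in all TNF libraries, Col9a2 lies below 1 FPKM in all of them, and Col6a1 is at 0.246 FPKM in TNF 1 and 52.7 FPKM in TNF 4.

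The remaining tested members were low in both groups. Col22a1, a collagen of tissue junctions, was at 0.0172 to 1.74 FPKM in controls and at 1.47, 0.663 and 1.46 FPKM in TNF 1, TNF 3 and TNF 4 (adjusted p = 0.409). Col26a1 was at 0.685 to 1.35 FPKM in controls and at 0.235, 1.06 and 3.30 FPKM in TNF 1, TNF 3 and TNF 4 (adjusted p = 0.813). The 19 rows below the filter reached 8.34 FPKM at most, in Col5a1. Of these 19, 6 reached 1 FPKM in any library, namely Col5a1, Col5a3, Col6a3, Col6a4, Col15a1 and the second Col9a1 row. Col6a4 was at 0 to 0.631 FPKM in controls and at 0.249, 2.91 and 4.21 FPKM in TNF 1, TNF 3 and TNF 4. Col15a1, a relative of Col18a1 in basement membranes of vessels and muscle, was at 0.118 to 0.841 FPKM in controls and at 0.198, 3.68 and 3.21 FPKM. The other 13 rows were Col4a3, Col4a4, Col4a6, Col6a5, Col6a6, Col10a1, Col11a2, Col19a1, Col20a1, Col24a1, Col27a1, Col28a1 and the second Col8a2 row.

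Of 34 genes that modify, cut and cross-link collagen 27 were tested, and 10 rose and 1 fell, with a median log2 change of 0.83. For this and the other lists the same shares of all rows apply, 10.9% higher and 27.2% lower. Lox, the oxidase that starts collagen cross-links, was at 9.43, 7.91 and 3.24 FPKM in controls and at 29.7, 63.3 and 71.4 FPKM in TNF 1, TNF 3 and TNF 4 (2.83 ± 0.45, adjusted p = 0.00359). Bmp1, which removes the C-terminal propeptide of fibrillar procollagen and also acts on lysyl oxidase, was at 3.72 to 5.40 FPKM in controls and at 12.3, 17.2 and 21.4 FPKM in TNF 1, TNF 3 and TNF 4 (1.67 ± 0.26, adjusted p = 0.00312). All TNF libraries, TNF 1 included, were above all controls for both. Bmp1 was 0.37 (adjusted p = 0.538) with scaling to the horizontal basal cell markers, and exons of Lox and Plod3 overlap other genes. Plod3, a lysyl hydroxylase, rose by 0.83 ± 0.18 (adjusted p = 0.0126, and adjusted p = 0.0527 without control 1) and was −0.54 with scaling to the horizontal basal cell markers. Pcolce2, an enhancer of propeptide removal, was at 85.7 to 96.2 FPKM in controls and at 23.5, 7.12 and 5.85 FPKM in TNF 1, TNF 3 and TNF 4 (−3.03 ± 0.47, adjusted p = 0.00313). The count of higher genes was 16 without TNF 1 (14.7% of all rows), 5 without control 1 (7.02%) and 4 without TNF 3 (6.24%) or TNF 4 (6.76%). It was 2 with the replicate number as a block (4.95%) and 1 with scaling to the horizontal basal cell markers (1.54%), under which 5 genes were lower (63.4%).

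Partners of collagen IV in the basement membrane, listed together with the hemidesmosome collagen Col17a1, also rose in part. Of 22 genes 16 were tested, and 8 rose and 1 fell, with a median of 1.34. Col17a1, left out of the members above, was among the 8 (1.74 ± 0.43, adjusted p = 0.0193). Smoc2, a calcium-binding matrix protein, was at 6.40, 9.84 and 7.82 FPKM in controls and at 153, 152 and 156 FPKM in TNF 1, TNF 3 and TNF 4. The 3 TNF libraries were nearly equal (4.11 ± 0.18, adjusted p = 0.000368). Lamb2, a laminin beta chain, rose by 1.46 ± 0.25 (adjusted p = 0.00450, and 0.09 with adjusted p = 0.899 with scaling to the horizontal basal cell markers). Frem2, a protein of the zone below epithelia, was at 1.61 to 2.61 FPKM in controls and 0.173 to 0.583 FPKM in TNF libraries (−1.26 ± 0.21, adjusted p = 0.00413). Frem2 passed the filter only through the controls. The count of higher genes was 5 without control 1 (7.02% of all rows), without TNF 3 (6.24%) and with the replicate number as a block (4.95%). It was 2 with scaling to the horizontal basal cell markers (1.54%), where 3 were lower (63.4%).

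Of 25 genes for proteins that decorate or surround fibrils 20 were tested, and 3 rose and 1 fell, with a median of 0.76. Leaving out TNF 1 gave 14 higher and 1 lower, where 14.7% and 32.9% of all rows were called. Fbln1, fibulin 1, rose by 1.65 ± 0.26 (adjusted p = 0.00325) and was at 31.8 to 42.3 FPKM in TNF libraries against 8.73 to 16.0 FPKM in controls, and it was 0.26 (adjusted p = 0.655) with scaling to the horizontal basal cell markers. Tgfbi, which binds collagens and integrins, rose by 1.64 ± 0.31 (adjusted p = 0.00704), with its highest value, 41.2 FPKM, in TNF 1, and it was 0.24 (adjusted p = 0.742) under the same scaling. Fibrillin 1, encoded by Fbn1, rose by 1.91 ± 0.41 (adjusted p = 0.0118). Fbn1 was at 0.134 to 0.601 FPKM in controls and 1.65 to 7.02 FPKM in TNF libraries, so it passed the filter only through the TNF group. Fbln2 was at 7.08 to 9.90 FPKM in controls and 1.01 to 4.49 FPKM in TNF libraries (−1.46 ± 0.38, adjusted p = 0.0239). The Fbln2 call ended without control 1, control 2 or TNF 3 (adjusted p from 0.0680 to 0.0740).

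Among collagen receptors 11 of 13 were tested, and 4 rose and 0 fell, with a median of 0.95. Itga2, the collagen-binding integrin subunit of epithelia, was at 0 to 0.114 FPKM in controls and at 1.84, 3.29 and 3.48 FPKM in TNF 1, TNF 3 and TNF 4 (1.83 ± 0.22, adjusted p = 0.00135). Itga2 passed the filter only through the TNF group, in which it was high. Ddr1, the epithelial receptor kinase for collagen, was at 21.5 to 28.6 FPKM in controls and 56.7 to 87.0 FPKM in TNF libraries, with its highest value in TNF 1 (1.48 ± 0.21, adjusted p = 0.00229). Cd44, a hyaluronan receptor that also binds collagen, rose by 1.96 ± 0.21 (adjusted p = 0.000925). Sdc1, syndecan 1, rose by 0.95 ± 0.27 (adjusted p = 0.0329), a call that ended with each single omission other than that of TNF 1 (adjusted p from 0.0523 to 0.0790), and it was −0.50 with scaling to the horizontal basal cell markers. Exons of Ddr1 overlap Gm4577. Under that scaling Ddr1 and Cd44 did not pass, at 0.05 (adjusted p = 0.934) and 0.63 (adjusted p = 0.288). With TNF 1 left out, 8 receptors were higher and 1 was lower, where 14.7% and 32.9% of all rows were called.

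Of 14 collagen-degrading proteases and their inhibitors 12 were tested, and 3 rose and 1 fell, with a median of 0.61. Mmp14, the membrane collagenase, was at 33.2, 54.4 and 36.9 FPKM in controls and at 135, 129.5 and 128 FPKM in TNF 1, TNF 3 and TNF 4 (1.67 ± 0.21, adjusted p = 0.00151), and it was 0.22 (adjusted p = 0.705) with scaling to the horizontal basal cell markers. Timp1, a metalloprotease inhibitor, rose by 2.96 ± 0.43 (adjusted p = 0.00260). Mmp3 was at 0 to 0.0446 FPKM in controls, at 2.55 FPKM in TNF 1 and at 438 and 582 FPKM in TNF 3 and TNF 4. It passed the filter only through the TNF group, and its call (6.56 ± 1.85, adjusted p = 0.0307) ended with each single omission other than that of TNF 1. Mmp16, another membrane metalloprotease, was at 11.6 to 19.3 FPKM in controls and 0.606 to 1.65 FPKM in TNF libraries (−3.09 ± 0.30, adjusted p = 0.000699). With TNF 1 left out, 7 genes of the list were higher and 1 was lower, where 14.7% and 32.9% of all rows were called.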

How the data were processed

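Bulk RNA sequencing covered 6 libraries of GFP-positive cells sorted into a lysis reagent, 3 per group, with amplification from 5 ng of RNA and Nextera libraries, per the labels' protocols. The authors deposited 1 table of FPKM per gene, though its title speaks of raw counts, and 99.98% of values above 0 were not whole to within rounding error. The build mm10 and the tools TopHat2 2.1.1, Cuffdiff 2.2.1, FastQC 0.10.1 and bcl2fastq are named, without their roles, per the submitters' processing notes. Deposited positions start 1 base early and were moved by 1. Of 22908 rows compared, 75.6% then had the bounds of GENCODE M21, which also gave exon overlaps. The table held 0 columns of other samples.

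Limma 3.58.1 in R 4.3.3 was fitted to the 15037 rows that reached 1 FPKM in 3 or more libraries, as log2(FPKM + 1) with an intensity trend, a pseudocount of 1, no rescaling, no covariate and Benjamini-Hochberg adjustment. Omissions of libraries kept these rows. On simulated data the fit recovered 23.9%, 69% and 93.3% of log2 changes of 1, 2 and 4, and 3.95% of its calls were false. A change that did not pass is therefore not shown to be absent. The members, lists and tests were chosen with earlier results of these data known. The rule for named genes took all tested members of both sets, called or abundant other members, up to 4 called genes per pathway list and the 2 most abundant per marker list. Other members were named after their values were seen, and named genes of the neuron, sustentacular and macrophage lists and the shared Krt14 and Krt17 row are left out for length. Some named genes of the lists are not reported here. Of 208 list symbols 1 was unmatched. Alternatives were a pseudocount of 0.1, no filter, a filter of 5 FPKM, 4 scalings, a robust variance, the replicate number as a block, library omissions and an adjusted p below 0.01. The same alternatives for pathway list counts, and marker list counts without TNF 1, were added after the data were seen.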

Additional observations from a re-analysis of the deposited data

How the results depend on the processing

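The 5 higher and 2 lower collagen rows changed with several choices, and so did the share of all rows called, given in parentheses. With the main choices that share was 10.9% higher and 27.2% lower. The count of higher rows was 3 without the filter (5.38%), 1 with scaling to the horizontal basal cell markers (1.54%) and 8 with quantile normalization (17.7%). It was 2 with the replicate number as a block (4.95%) and 14 without control 4 and TNF 1 together (18.9%). It was 1 at an adjusted p below 0.01 and 1 to 14 with single libraries left out (6.24% to 14.7%). The count of lower rows was 1 with a filter of 5 FPKM (24.8%) and 4 with scaling to the horizontal basal cell markers (63.4%). It was 4 without that pair of libraries (39.7%) and 2 to 3 with single libraries left out (18.6% to 32.9%). The fibrillar median was −0.04 with a filter of 5 FPKM, −1.09 with scaling to the horizontal basal cell markers, −0.26 with the block and −0.93 to 2.13 with single omissions. The basement membrane median was 0.59 without the filter, 1.33 with a filter of 5 FPKM, −0.30 with scaling to the horizontal basal cell markers, 1.30 with quantile normalization, 0.67 without the pair of libraries and 0.82 to 1.19 with single omissions. The cause was not tested.

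The median of all rows was −0.22 as deposited, −0.01 with median-of-ratios scaling, −0.09 with upper quartile scaling, 0.05 with quantile normalization and −1.52 with scaling to the horizontal basal cell markers. Under the last, 12 of 26 members turned sign: Col3a1 to −0.79, Col18a1 to −0.69, Col9a3 to −0.65, Col11a1 to −0.62, Col26a1 to −0.60, Col4a5 to −0.47, Col7a1 to −0.30, Col14a1 to −0.29, Col13a1 to −0.25, Col16a1 to −0.18, Col8a1 to −0.17 and Col22a1 to −0.01. All 12 stayed above the median of all rows. So did Plod3 at −0.54, Sdc1 at −0.50, Dcn at −0.64, Gsn at −0.74, Sox9 at −0.70, Acta2 at −1.02 and Egfl7 at −1.23. Col1a2 turned to 0.18, 0.10 and 0.22 with median-of-ratios, upper quartile and quantile scaling. Without the pair of libraries Col1a2 was at 0.57 (adjusted p = 0.0242) and Plvap at 1.83 (adjusted p = 0.000737). Col25a1 turned to 0.02 and 0.58 with median-of-ratios and quantile scaling, and Col9a1 to 0.29 with the latter. Egfl7 was at −0.01 with a pseudocount of 0.1. With single omissions Col1a1 ran from −1.50 to 0.94, Col1a2 from −1.09 to 1.62, Col3a1 from −0.90 to 2.90, Col11a1 from −0.21 to 0.60, Col26a1 from −0.32 to 0.58, Col25a1 from −0.35 to 0.10, Dcn from −0.07 to 2.25, Plvap from −1.86 to 1.42, Egfl7 from −0.66 to 1.23 and Acta2 from −0.55 to 1.87.

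The groups share replicate numbers 1 and 4, and nothing in the labels says that a number pairs samples. Deviations from the group means correlated at −0.06 for number 1 and −0.09 for number 4. With the replicate number as a block Col3a1 was at −1.31, Egfl7 at −0.47 and Acta2 at −0.48, and the calls of 3 members ended. All 26 members kept their direction and side of the threshold with a pseudocount of 0.1 and with a robust variance. Without read depth, no counting interval can be given for low members.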

Other observations

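Chains that share a trimer were compared as FPKM ratios in each library, as a description chosen after the values were seen. Col4a1 stood at 1.72, 1.91 and 1.44 times Col4a2 in control 1, control 2 and control 4 and at 1.89, 2.25 and 2.08 times in TNF 1, TNF 3 and TNF 4, a narrow range over libraries in which Col4a1 itself ran from 8.02 to 63.7 FPKM. Col1a1 stood at 0.939, 1.65 and 1.18 times Col1a2 in controls and at 1.57, 0.874 and 0.652 times in TNF libraries. Col6a1 stood at 0.904 to 0.979 times Col6a2 in controls and at 1.40, 1.57 and 1.69 times in TNF 1, TNF 3 and TNF 4, also in the library where both were below 0.25 FPKM. Col8a2 stood at 0.224 to 0.535 times Col8a1 in controls and at 3.07, 2.25 and 1.59 times in TNF libraries, where the ratio in TNF 1 rests on 0.920 and 0.299 FPKM. Col9a3 stood at 0.0866 to 0.219 times Col9a2 in controls and at 16.2, 4.53 and 2.90 times in TNF libraries. These TNF ratios are uncertain, since Col9a2 was at only 0.393 to 0.769 FPKM there and exons of Col9a3 overlap Tcfl5.

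The ratio of Col1a1 to Col3a1 did not keep to the groups. It was 0.777, 13.7 and 0.381 in control 1, control 2 and control 4 and 7.95, 0.517 and 0.318 in TNF 1, TNF 3 and TNF 4, so control 2 and TNF 1 were the libraries rich in Col1a1 relative to Col3a1. Col4a1 was at 0.0582 to 0.834 times Col1a1 in controls and at 2.82 times in TNF 1, the library in which a basement membrane chain exceeded this fibrillar chain.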
